A study of Lepidium sativum with 30 samples.

Results

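Garden cress (Lepidium sativum) seed imbibed with myrigalone A (MyA) was followed over its last step to endosperm rupture, from 12 h to 18 h of imbibition. The members were chosen by their labels: the 4 MyA 18 h libraries, replicates 1 to 4, and the 5 MyA 12 h libraries, which is 9 of the 30 libraries of the series. The other libraries came from dry seed, from control seed imbibed for 6 h and 12 h, and from MyA seed imbibed for 6 h, with 5 libraries each. The fifth MyA 18 h library was left out, as in the published analysis. All seeds were of the FR14 line, RNA was poly(A) RNA of whole seeds, MyA was given at 0.5 mM and control seed was imbibed without it. The endosperm begins to rupture by 12 h in control seed and by 18 h in MyA seed. The series holds no control of 18 h, so time and stage cannot be told apart within MyA seed. The control step from 6 h to 12 h, which also lasted 6 h and also ended at rupture, served as the comparison. The study describes its replicates as biological, and the labels do not say what separated them, so the p-values cover only how far these libraries differ.

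MyA is a dihydrochalcone of the fruits of sweet gale and delays germination. A cress seed germinates in visible stages: the testa splits first, and later the radicle breaks through the endosperm that covers it. This last stage needs embryo cells to elongate, which loosens and rebuilds cell walls, and the endosperm cap to weaken. Histones package new DNA and are made mainly while a cell copies its genome, so their transcripts mark cells in that phase. Glutathione transferases, glucosyltransferases and efflux pumps form the system by which plants modify, conjugate and store away foreign compounds.

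Read counts of 48306 contigs assembled by the study were analysed, and contigs carry names of Arabidopsis or Brassica genes only where supplementary sheets of the study give one. Total counts were 22735661 to 32694757 in MyA 12 h libraries and 27943797 to 30778534 in MyA 18 h libraries. A contig was tested if it had a level of at least 5 CPM (reads of the contig scaled to a common library total) in at least 4 of the 29 libraries, and 22155 contigs did. Contigs enriched at least 4-fold in the fifth MyA 18 h library (1958 contigs, 23.5% of its counts) held 4.27%, 5.85%, 7.09%, 5.71% and 1.65% of the counts in MyA 12 h replicates 1 to 5, and 3.1%, 3.56%, 1.95% and 1.09% in MyA 18 h replicates 1 to 4. A list of 28 contigs with a Brassica match only does not hold every contig with a Brassica name, for example not Bo2g146260 and Bo3g045810. All 21 tested contigs of this list belong to the enriched set. Their summed level with the 7 untested ones was 667 to 2770 CPM at MyA 12 h and 399 to 1400 CPM at MyA 18 h. Of the 28 contigs 0 were at 0 in a whole group. The 10 plastid and photosynthesis contigs summed to 215 to 643 CPM at MyA 12 h and 155 to 319 CPM at MyA 18 h. The share of the enriched set was 4.91 ± 2.08% at MyA 12 h and 2.42 ± 1.12% at MyA 18 h (mean and SD). With that share as a covariate (chosen after seeing the data) the step gave 477 rises and 199 falls. Of the contigs that rose 0 belong to the set, and of those that fell 1 does. The 4 seed markers fixed for whole seed, LEA18, RAB18, TIP3;1 and LDAP3, were all detected at mean levels of 16.5, 15.1, 4.03 and 2.33 CPM at MyA 12 h.

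Between MyA 12 h and 18 h most contigs called as changed rose. A contig was called when edgeR's quasi-likelihood test gave an adjusted p (Benjamini-Hochberg) under 0.05 with more than a 2-fold change. By this rule 515 contigs changed (2.32% of those tested), of which 436 rose (1.97%) and 79 fell (0.357%). Over all tested contigs 10136 had a positive change, and the median log2 fold change was -0.04. At an unadjusted p below 0.05 in the same test 3514 were higher and 2600 lower. The median rise was 1.35 on the log2 scale, and 68 contigs rose by more than 4-fold. Lack of overlap was more common than a call: of the 22155 tested contigs, 2652 had every MyA 18 h library above every MyA 12 h library. In 1078 every MyA 18 h library was below. Of the 231 tested contigs with a name 91 rose (39.4%) and 2 fell. Of the 91 named rises 84 stand in the sheet of contigs higher at MyA 18 h than at control 12 h, as do 120 of the 231 tested named contigs. That sheet was chosen on these libraries, so the names give no independent evidence of direction. The share of 39.4% is the background for the rises in each list of named contigs. The filter also favoured rises: 130 of the 436 passed it only through the MyA 18 h libraries, and among the 21781 contigs that passed without them 306 rose (1.4%). The count of falls depended on single libraries, being 182 without MyA 12 h replicate 5, 40 without MyA 18 h replicate 1 and 45 without MyA 18 h replicate 4, whereas the count of rises stayed between 304 and 466 whichever library was left out. Scaling by 3 reference contigs gave 296 rises and 141 falls, so rises were 67.7% of the calls.

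The contigs that rose were chosen for being high at MyA 18 h, and their levels in the other groups describe where they stood before. At MyA 12 h their level was near that of control 12 h seed, with a median log2 ratio of -0.09, and at MyA 18 h it was above it, with a median log2 ratio of 1.24. In 424 of the 436 contigs the MyA 18 h mean was the highest of the 6 groups, and in 10 the dry seed mean was. Among the 306 rises that passed the filter without the MyA 18 h libraries it was the highest in 297, and the median log2 ratio to control 12 h was 1.19. The contigs that fell stood at a median log2 ratio of -0.05 to control 12 h at MyA 12 h and -1.14 at MyA 18 h, and MyA 18 h was the lowest of the 6 groups in 50 of the 79.

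**Figure D1:**
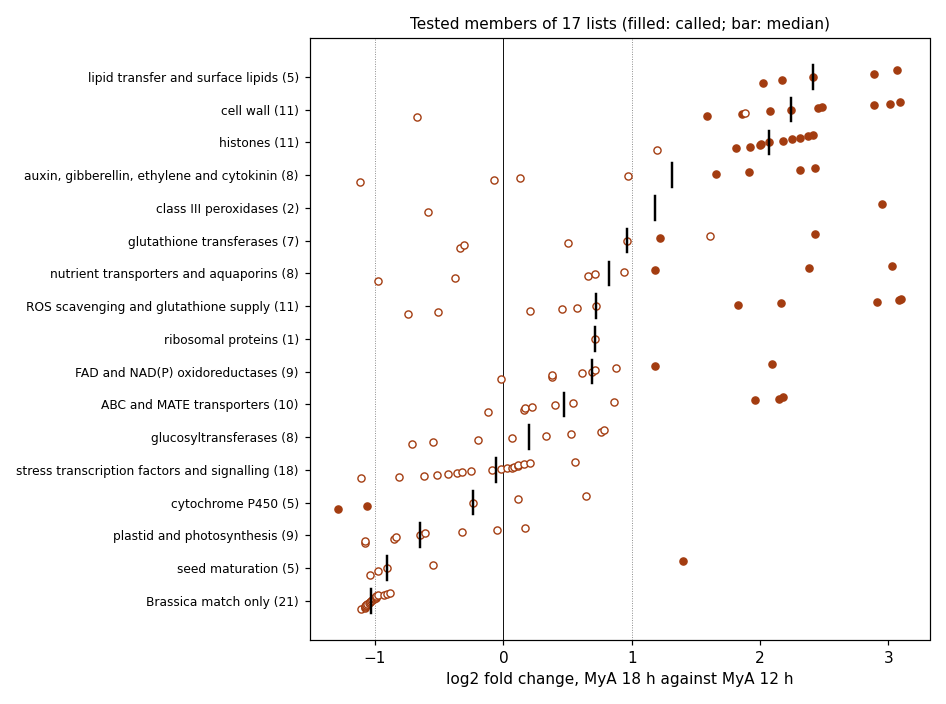
Log2 fold change from MyA 12 h to MyA 18 h (x axis) of each tested contig of 17 gene lists (y axis, number tested in brackets); filled points were called, open points were not, black bars are list medians and dotted lines mark a 2-fold change. Lipid transfer, cell wall and histone contigs lie furthest to the right with medians of 2.41, 2.24 and 2.07, and the contigs of the list Brassica match only lie together near a median of -1.03.

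Histone transcripts rose together. Of 14 histone contigs 11 were tested, 2 of them passing the filter only through MyA 18 h, and 10 of the 11 rose, with a median log2 fold change of 2.07 against -0.04 over all tested contigs. Among all tested named contigs 39.4% rose. HTA6 (TC_49740), a histone H2A, stood at 14.9, 9.18, 12.16, 16.3 and 14.2 CPM in the MyA 12 h libraries and at 108, 61.5, 58.8 and 56.7 CPM in the MyA 18 h libraries. Every MyA 18 h library was above every MyA 12 h library, and replicate 1 was the highest. The log2 fold change was 2.41 ± 0.24 (SE, adjusted p = 0.000796, edgeR, n = 4 and 5), a 5.31-fold rise. The histone H4 contig AT5G59690 (TC_59261) was at 13.5, 8.36, 11.1, 12.7 and 12.25 CPM and then at 70.7, 47.1, 44.4 and 49.2 CPM, again with no overlap, and rose by 2.18 ± 0.18 on the log2 scale. A second H4 contig, AT1G07660 (TC_65158), rose by 2.37 ± 0.26, and the H3 contigs TC_25577 and TC_36392 rose by 2.31 ± 0.22 and 2.25 ± 0.21. The tested contig that was not called, an H4 (TC_58959, named after its values were seen), stood at 2.47 ± 1.97 and 5.72 ± 1.42 CPM. Histone genes are near-identical copies of each other, so reads could be split between contigs and single histone contigs are uncertain.

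In control seed 9 of the 11 tested histone contigs were not called between 6 h and 12 h, and 2 rose (background 12.8% of contigs). The mean log2 level of the 11, set to 0 at the control 12 h mean, was -1.79 in dry seed, -0.33 at control 6 h, 0.01 at MyA 12 h and 2.01 at MyA 18 h. HTA6 stood at 17 ± 3.57 CPM in control 6 h, 12.42 ± 2.6 CPM in control 12 h and 17 ± 2.88 CPM in MyA 6 h seed (mean and SD, n = 5 each), all close to its MyA 12 h mean of 13.3 ± 2.76 CPM. AT5G59690 was at 8.92, 12.35 and 9.09 CPM in those groups and at 11.6 CPM at MyA 12 h. The contigs that rose in the control step were an H2B (TC_42532, named after its values were seen), from 11 ± 2.72 to 23.3 ± 3.63 CPM, and the H3 contig TC_25577, from 3.19 ± 1.05 to 6.48 ± 1.54 CPM. Over the 11 contigs the median log2 fold change of the control step was 0.5, which was -0.05 when 3 reference contigs set the scale. The difference between the steps, tested as MyA step minus control step over 19 libraries, was called higher for 10 of the 11 (background 11.2%), and for HTA6 it was 2.77 ± 0.29 (adjusted p = 1.93e-06). The list was chosen on the MyA 18 h and control 12 h libraries, which both enter this difference.

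Most cell wall transcripts rose further on a rise that had already begun. Of 23 cell wall contigs 11 were tested, 8 of them passing the filter only through MyA 18 h, and 9 rose and 0 fell, with 10 higher and 1 lower at an unadjusted p below 0.05 and a median log2 fold change of 2.24. Over all tested contigs 1.97% rose, and 39.4% of the named ones did. The 1 lower contig was EPR1 (TC_36804, named after its values were seen), from 36.9 ± 12.6 to 23.6 ± 3.37 CPM. EPR1 stood at 206.2 CPM in control 6 h and 64.5 CPM in control 12 h seed. In a second fit over 42794 contigs with at least 5 counts in 4 libraries, where 1.79% rose, 10 of the 12 remaining members rose. With the filter counted without the MyA 18 h libraries 3 members were tested and 2 rose. ELP (TC_25766), an extensin-like protein, stood at 28.3, 20.7, 18.53, 7.8 and 4.52 CPM at MyA 12 h and at 240, 100, 77.8 and 136 CPM at MyA 18 h. The groups did not overlap although the MyA 12 h libraries themselves spread widely, and ELP rose by 3.09 ± 0.55 on the log2 scale (adjusted p = 0.00909, edgeR). EXT3 (TC_47372), an extensin that builds the wall's protein network, was at 1.97, 1.93, 1.13, 0.171 and 0.423 CPM and then at 8.98, 5.02, 8.31 and 12.27 CPM. It rose by 2.89 ± 0.58. The extensin family contig AT5G22430 (TC_22389) rose by 3.01 ± 0.45, the pectin lyase-like AT5G48900 (TC_65913) by 2.48 ± 0.44 and the carbohydrate-binding AT5G35740 (TC_49938) by 2.45 ± 0.31. XTH9 (TC_23265) and XTH10 (TC_28243), enzymes that cut and rejoin the xyloglucan tethers of the wall and named after their values were seen, rose by 2.24 ± 0.2 and 1.59 ± 0.25.

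In control seed most of these wall transcripts had gone from near absence to a clear level between 6 h and 12 h. ELP stood at 0.0682 ± 0.0551 CPM in control 6 h and 18.27 ± 8.08 CPM in control 12 h seed, and EXT3 at 0.0191 ± 0.0281 and 1.23 ± 0.756 CPM. Of the 11 tested contigs 10 rose and 1 fell in the control step, with a median log2 fold change of 4.33, and the MyA step minus the control step was called lower for 7 (background 7.79%) and higher for 0. For ELP the difference was -5.02 ± 0.94, a value that rests on a control 6 h level of a few counts per library. In treated seed ELP stood at 0.181 CPM at 6 h, 16 CPM at 12 h and 138 CPM at 18 h. All 11 contigs overlapped between MyA 12 h and control 12 h libraries, and in 10 every MyA 18 h library was above every control 12 h library. The list was chosen on the MyA 18 h and control 12 h libraries, and 8 of the 11 passed the filter only through MyA 18 h. These 2 counts are therefore a description, and their shares over all tested contigs were not computed.

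**Figure D2:**
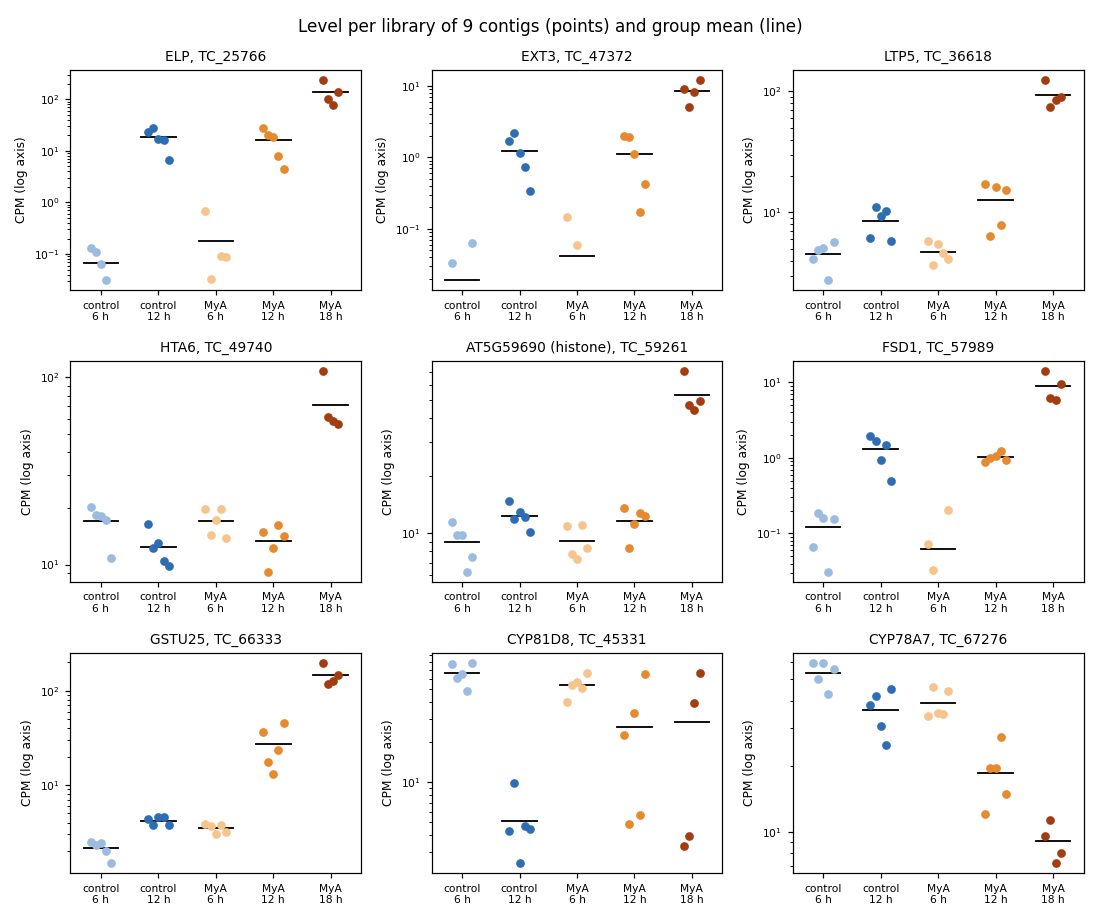
Level in CPM on a log axis (y axis) of 9 contigs in each library (points) by group (x axis) with the group mean as a line; libraries at 0 are not drawn. ELP and EXT3 rose between 6 h and 12 h and again by MyA 18 h, whereas the group means of HTA6 and AT5G59690 lay between 8.92 and 17 CPM from 6 h to MyA 12 h and at 71.3 and 52.8 CPM at MyA 18 h.

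Transcripts listed for lipid transfer and surface lipids rose as well. All 5 tested contigs of 10 in the list of lipid transfer and surface lipids rose, 2 of them passing the filter only through MyA 18 h, and all 5 of the others rose in the second fit. Among all tested named contigs 39.4% rose. LTP5 (TC_36618), a lipid transfer protein of the kind that carries cutin and wax precursors, was at 17.3, 6.36, 16.1, 7.93 and 15.4 CPM at MyA 12 h and at 125, 74.3, 85.5 and 90.5 CPM at MyA 18 h. No library overlapped, and LTP5 rose by 2.89 ± 0.31 on the log2 scale (adjusted p = 0.00115, edgeR). Bo3g045810 (TC_48625) and AT4G22460 (TC_28345), both of the lipid transfer and 2S albumin superfamily, rose by 3.07 ± 0.51 and 2.41 ± 0.34. The wax ester synthase-like AT5G12420 (TC_26934) and the GDSL lipase AT5G45950 (TC_25606) rose by 2.02 ± 0.35 and 2.17 ± 0.39, and AT5G12420 lost the call when the fifth MyA 18 h library was included. LTP5 rose by 1.03 ± 0.24 in the control step, and its MyA step was larger by 1.88 ± 0.39 (adjusted p = 0.000915). For Bo3g045810, AT4G22460 and AT5G12420 the MyA step was smaller than the control step, by -4.72, -1.78 and -3.28.

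**Figure D3:**
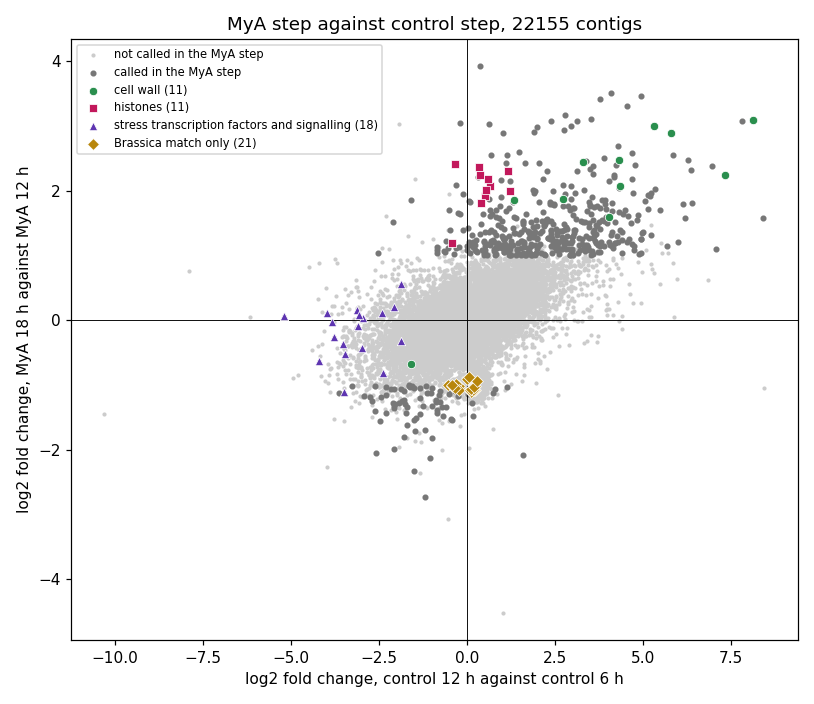
Log2 fold change of the MyA step (y axis) against that of the control step (x axis) for the 22155 tested contigs, dark grey where called in the MyA step, with the tested contigs of 4 lists in colour. Histones lie high but near 0 on the control axis, 10 of the 11 cell wall contigs lie to the upper right, and stress factors lie far left and near 0 on the MyA axis.

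The largest named rises outside these lists came from varied families. AT4G14060 (TC_24774), of the polyketide cyclase and lipid transport superfamily, was at 1.08, 0.361, 0.733, 1.02 and 1.27 CPM and then at 21.2, 10.1, 14.3 and 9.19 CPM. Its rise of 3.93 ± 0.37 was the largest of all 436 (adjusted p = 0.000796, edgeR), and in control seed it stood at 0.776 CPM at 6 h and 0.909 CPM at 12 h, so the steps differed by 3.58 ± 0.86 (adjusted p = 0.00268). AT1G09310 (TC_47390), of the DUF538 family of unknown function, went from 8.5, 6.29, 5, 3.62 and 6.61 CPM to 69.9, 41.8, 36.7 and 51.2 CPM. It rose by 3.04 ± 0.26 in the MyA step and changed by -0.19 ± 0.3 in the control step. AT1G62480 (TC_35967), related to vacuolar calcium-binding proteins, went from 29.5 ± 5.09 to 269 ± 101.9 CPM and rose by 3.18 ± 0.26. BFRUCT3 (TC_28464), an invertase-family enzyme of the kind that splits sucrose in the vacuole, rose by 3.47 ± 0.69, with MyA 12 h replicate 1 at 8.71 CPM above the other MyA 12 h libraries at 0.64 to 2.43 CPM. The acid phosphatase AT1G04040 (TC_38455), the F-box protein AT3G23880 (TC_23056) and the TRAF-like Bo2g146260 (TC_28426) rose by 3.42 ± 0.31, 3.08 ± 0.39 and 3.01 ± 0.31. Without a name, TC_44299 and TC_22377 rose by 3.51 ± 0.34 and 3.3 ± 0.18. BFRUCT3, AT1G04040, AT3G23880, Bo2g146260, AT4G14060 and both unnamed contigs passed the filter only through MyA 18 h.

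Some contigs for enzymes that remove reactive oxygen rose, at a share near the 39.4% of all tested named contigs. Of 15 contigs for ROS scavenging and glutathione supply 11 were tested, 4 of them only through MyA 18 h, and 5 rose and 0 fell (5 and 0 at an unadjusted p below 0.05), with a median log2 fold change of 0.72. The 4 that passed only through MyA 18 h were all among the rises. The name FSD1 is shared by 5 contigs, 3 of them tested, and FSD1 is the iron superoxide dismutase that turns superoxide into hydrogen peroxide. TC_57989 was at 0.89, 0.983, 1.07, 1.24 and 0.932 CPM at MyA 12 h and at 14, 6.17, 5.85 and 9.37 CPM at MyA 18 h, a rise of 3.1 ± 0.29 (adjusted p = 0.000745, edgeR). TC_62123 rose by 2.91 ± 0.38 and TC_41220 by 1.83 ± 0.35. None of the 3 overlapped between the groups, as held upward for 2652 of all 22155 tested contigs. The other FSD1 contigs, TC_38602 and TC_63012, lay below the filter and rose by 2.38 ± 0.32 and 2.04 ± 0.3 in the second fit (both named after their values were seen). CCH (TC_48592), a copper chaperone, rose by 3.08 ± 0.26, and APX5 (TC_49892), an ascorbate peroxidase that removes hydrogen peroxide, by 2.16 ± 0.16. The alternative oxidase AOX1A (TC_46722), which takes electrons past the proton-pumping part of the respiratory chain, was at 14 ± 10.8 and 20.8 ± 15.4 CPM and was not called.

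Class III peroxidases, secreted enzymes that can stiffen or loosen walls, moved in different ways. PER45 (TC_56525) was at 1.21, 0.59, 1.27, 0.682 and 0.282 CPM and then at 10.4, 5.12, 5.05 and 4.79 CPM, a rise of 2.95 ± 0.44 (adjusted p = 0.00433, edgeR), and passed the filter only through MyA 18 h. PER13 (TC_24424) stood at 17.2 ± 6.05 CPM at MyA 12 h and 11.5 ± 1.56 CPM at MyA 18 h, both above 6.78 ± 1.39 CPM in control 12 h seed, and was not called (-0.59 ± 0.23). PER70 (TC_1841), below the filter, was at 0.715 ± 0.202 and 0.515 ± 0.291 CPM against 1.63 ± 1.08 CPM in control 12 h seed and was not called in the second fit. The other 2 of the 5 members rose in the second fit.

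Of the detoxification enzymes a few contigs rose and most were not called. Glutathione transferases attach glutathione to foreign compounds, and 2 of 7 tested contigs of 12 rose and 0 fell (5 and 0 at an unadjusted p below 0.05). Over all tested named contigs 39.4% rose. GSTU25 (TC_66333) was at 36.3, 17.6, 13.1, 23.6 and 45.4 CPM at MyA 12 h and at 198, 117, 127 and 145 CPM at MyA 18 h, while control 12 h libraries stood at 3.73 to 4.58 CPM. It rose by 2.43 ± 0.34 (adjusted p = 0.00336, edgeR), more than in the control step by 1.37 ± 0.37 (adjusted p = 0.00668). GSTU22 (TC_25073), which passed the filter only through MyA 18 h, rose by 1.22 ± 0.16, from 4.96 ± 1.05 to 11.6 ± 0.924 CPM. A second GSTU25 contig (TC_23016) went from 0.981 to 10.2 CPM at MyA 12 h to 7.66 to 16.8 CPM at MyA 18 h, overlapped and was not called (1.61 ± 0.66, adjusted p = 0.151), and GSTU19 (TC_60657), below the filter, changed by -0.39 ± 0.39. Of the 5 contigs below the filter 2 rose in the second fit (both named after their values were seen), GSTF4 (TC_48160) by 3.52 ± 0.38, from 0.272 ± 0.136 to 3.22 ± 0.937 CPM, and a further GSTU22 contig (TC_69848) by 1.66 ± 0.2.

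Glucosyltransferases, which attach sugar to small molecules, gave 0 calls in 8 tested contigs, with 3 higher and 0 lower at an unadjusted p below 0.05 and 0 calls by DESeq2 as by edgeR. Over all tested contigs 2.32% were called, and 39.4% of the named ones rose. UGT73B5 (TC_66416) was at 31.6, 20.6, 24.5, 29.5 and 37.9 CPM and then at 56.5, 35.2, 46.2 and 58.6 CPM, with 1 MyA 18 h library below the highest MyA 12 h library. Its change of 0.76 ± 0.19 had an adjusted p of 0.0309 (edgeR) and stayed under the 2-fold threshold. The name UGT73B5 is shared with TC_17628 and TC_48316, which were not called and were named after their values were seen. TC_17628 stood at 23.6 ± 18.6 CPM at MyA 12 h and 24.7 ± 21.3 CPM at MyA 18 h. TC_48316 stood at 7.83 ± 3.13 and 4.85 ± 3.67 CPM. UGT75D1 (TC_28242) went from 34.5 ± 6.15 to 59.7 ± 6.46 CPM without overlap, a change of 0.78 ± 0.14 that was also under the threshold. UGT75B1 (TC_37531) and UGT74E2 (TC_54879) changed by -0.2 ± 0.48 and -0.55 ± 0.58.

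Oxidoreductases that bind FAD or NAD(P) rose in 2 of 9 tested contigs of 16, beside 39.4% of all tested named contigs. Both passed the filter only through MyA 18 h, and 5 of the other 7 rose in the second fit. AT3G44190 (TC_66085) was at 11.5, 2.69, 1.57, 3.03 and 10.6 CPM at MyA 12 h and at 38, 20.4, 16.6 and 25.2 CPM at MyA 18 h, and at no more than 0.119 CPM in any control 12 h library. The groups did not overlap and the rise was 2.09 ± 0.56 (adjusted p = 0.0431, edgeR), a call that ended without any 1 of MyA 12 h replicates 2, 3 and 4 or of the 4 MyA 18 h libraries. SDR3B (TC_49624), a short-chain dehydrogenase, rose by 1.18 ± 0.27 and lost the call without MyA 12 h replicate 3 or MyA 18 h replicate 2, 3 or 4. The OPDA reductase OPR1/2 (TC_9428) was at 2.66 ± 1.39 and 4.06 ± 0.785 CPM and was not called (0.61 ± 0.31). The name OPR1/2 is shared with TC_2709 and TC_67173, both named after their values were seen. TC_2709 stood at 19.45 ± 9.77 CPM at MyA 12 h and 25.3 ± 5.2 CPM at MyA 18 h. TC_67173 stood at 0.4 ± 0.184 and 0.389 ± 0.117 CPM.

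Cytochrome P450 transcripts gave the only named falls. CYP78A7 (TC_67276), of a subfamily linked to organ growth in Arabidopsis, was at 12.11, 19.6, 19.6, 27.1 and 15 CPM at MyA 12 h and at 9.61, 11.4, 7.2 and 8.01 CPM at MyA 18 h. Every MyA 18 h library was lower, and the fall of -1.06 ± 0.25 (adjusted p = 0.028, edgeR) followed means of 53.7 CPM in control 6 h, 36.2 CPM in control 12 h and 38.8 CPM in MyA 6 h seed. The call ended without any 1 of MyA 12 h replicates 2, 3 and 4 or MyA 18 h replicates 1, 3 and 4. CYP81D4 (TC_3414) was at 4.37, 4.23, 5.06, 6.91 and 7.11 CPM and then at 1.55, 2.68, 3.11 and 1.77 CPM, a fall of -1.29 ± 0.26 (adjusted p = 0.0146), and kept the call whichever library was left out. These were 2 of 5 tested contigs of 8, beside falls in 0.357% of all tested contigs. Of the 3 members below the filter 1 rose in the second fit. CYP81D8 (TC_45331) is described with the stress factors. The unnamed contigs with the largest falls were TC_25480, from 30.3 ± 16 to 4.7 ± 1.65 CPM (-2.72 ± 0.5), and TC_53898, from 4.07 ± 1.32 to 0.812 ± 0.253 CPM (-2.33 ± 0.31). TC_25480 stood at 77.2 CPM in control 6 h and 30.9 CPM in control 12 h seed, and its MyA step was the larger fall, by -1.47 ± 0.51 (adjusted p = 0.0261).

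Transporters rose in small numbers. Of 10 tested ABC and MATE transporter contigs of 12, 3 rose and 0 fell (4 and 0 at an unadjusted p below 0.05), beside rises in 39.4% of all tested named contigs. Both ABCG14 contigs, named for a cytokinin exporter of Arabidopsis, rose: TC_35826 from 3.56 ± 1.61 to 16.4 ± 7.42 CPM (2.18 ± 0.41) and TC_46406 from 2.24 ± 1.05 to 8.84 ± 3.57 CPM (1.96 ± 0.39), the second losing the call without MyA 18 h replicate 1. DTX9 (TC_49031), a MATE efflux carrier, rose by 2.15 ± 0.32, and both DTX9 and TC_46406 passed the filter only through MyA 18 h. The auxin transporter ABCB4 (TC_55627), ABCG37 (TC_54077) and ABCG34 (TC_67753) were not called, at 0.4 ± 0.44, 0.16 ± 0.31 and 0.86 ± 0.23. Of 8 tested nutrient transporter and aquaporin contigs of 15, 3 rose and 0 fell (5 and 0 at an unadjusted p below 0.05), beside the same 39.4%. OPT3 (TC_27176), which moves iron in the phloem of Arabidopsis, was at 7.17, 4.16, 2.43, 4.09 and 6.77 CPM and then at 35.1, 36.8, 32 and 58.5 CPM, a rise of 3.03 ± 0.31 against 0.61 ± 0.38 in the control step (difference 2.45 ± 0.48, adjusted p = 0.000524). NPF6.2 (TC_26115) of the nitrate and peptide transporter family and the ammonium transporter AMT1-1 (TC_25408) rose by 2.38 ± 0.27 and 1.18 ± 0.25, AMT1-1 losing the call without MyA 18 h replicate 4. OPT3 and NPF6.2 passed the filter only through MyA 18 h. The amino acid transporters LHT1 (TC_67781) and UMAMIT25 (TC_24907) were not called, at 0.71 ± 0.26 and 0.66 ± 0.17, and both stood lower at MyA 12 h (5.55 and 5.82 CPM) than at control 12 h (10.7 and 12.31 CPM).

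Among hormone genes 4 of 8 tested contigs of 13 rose and 0 fell (5 and 0 at an unadjusted p below 0.05), beside 39.4% of all named contigs. WAT1 (TC_24485), which exports auxin from the vacuole in Arabidopsis, was at 2.35, 1.38, 0.866, 0.554 and 2.46 CPM and then at 10.2, 7.22, 8.25 and 7.63 CPM, a rise of 2.43 ± 0.38 (adjusted p = 0.00513, edgeR). SHY2 (TC_25365), an Aux/IAA repressor of auxin response, rose by 2.31 ± 0.23, and ARR4 (TC_49028), a response regulator induced by cytokinin, by 1.91 ± 0.19. WAT1 and SHY2, which passed the filter only through MyA 18 h, also rose in the control step, by 2.05 and 2.28. HLS1 (TC_58821), needed for the apical hook of Arabidopsis seedlings, was at 8.66, 8.36, 8.76, 6.4 and 9.32 CPM and then at 30.4, 19.4, 27 and 29.1 CPM, after 16.7 CPM in control 6 h and 12.7 CPM in control 12 h seed. Its MyA step of 1.66 ± 0.15 differed from the control step by 1.97 ± 0.26 (adjusted p = 1.33e-05). The auxin carrier PIN7 (TC_53214) and the auxin response factor ARF11 (TC_70138), both below the filter, changed by 0.3 ± 0.31 and 0.35 ± 0.24. SKS15 (TC_26313), a member of the SKU5-similar family of wall proteins and below the filter, rose by 2.35 ± 0.37 in the second fit (adjusted p = 0.00605).

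Transcripts of seed maturation were mostly not called, as were most contigs. Over all tested contigs 2.32% were called, and 39.4% of the named ones rose. RD22 (TC_37242), a BURP protein induced by drying, was the 1 of 5 tested maturation contigs of 7 that rose, at 1.4 ± 0.35 (adjusted p = 0.0335, edgeR). It passed the filter only through MyA 18 h and lost the call without MyA 12 h replicate 1, 2 or 3 or any MyA 18 h library. LEA18, RAB18, TIP3;1 and LDAP3 changed by -1.04, -0.91, -0.98 and -0.55 and were not called. Of the 2 maturation contigs below the filter 1 rose in the second fit. Ribosomal protein contigs gave 0 calls by edgeR and by DESeq2 in the 1 tested of 13 (1 higher at an unadjusted p below 0.05) and 1 rise among the other 12 in the second fit. Plastid contigs gave 0 calls in 9 tested of 10 by edgeR and by DESeq2, with 0 higher and 1 lower at an unadjusted p below 0.05. Contigs of the list Brassica match only gave 0 calls in 21 tested of 28, with 7 lower and 0 higher at an unadjusted p below 0.05, 4 lower by DESeq2, and all 21 changes between -1.11 and -0.88.

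Stress transcription factors switch on defence and oxidative stress genes, and their levels differed more between libraries of 1 group than between 12 h and 18 h. Of 23 contigs for stress transcription factors and signalling 18 were tested, 0 were called by edgeR or DESeq2 and 0 had an unadjusted p below 0.05, and the median log2 fold change was -0.06. Over all tested contigs 2.32% were called, and 39.4% of the named ones rose. The mean log2 level of the 18 contigs, set to 0 at the control 12 h mean, was 1.34, 0.44, 1.91, 0.73 and 2.57 in MyA 12 h replicates 1 to 5 and 0.5, 0.5, 1.3 and 2.42 in MyA 18 h replicates 1 to 4. Control 12 h libraries lay between -0.3 and 0.44 and control 6 h libraries between 2.16 and 3.73, so MyA libraries ran from near the control 12 h level to the control 6 h range. CYP81D8 (TC_45331) followed the same order, at 22.5, 4.85, 32.9, 5.71 and 64.8 CPM at MyA 12 h and at 3.31, 3.97, 39.3 and 66.3 CPM at MyA 18 h. OXI1 (TC_44356), a kinase of oxidative signalling, stood at 4.18 to 39.5 CPM and at 4.27 to 16.5 CPM, and NAC102 (TC_59650) at 13.5 to 60.8 CPM and at 19.7 to 57.7 CPM. ERF2 (TC_13835), an ethylene response factor, was at 0.328 to 4.53 CPM and at 0.407 to 8.13 CPM, and WRKY75 (TC_64935) at 3.18 to 17.2 CPM and at 8.24 to 20.7 CPM. Of the 5 stress contigs below the filter 2 rose in the second fit. BHLH38 (TC_25684, named after its values were seen) rose by 1.79 ± 0.26 (adjusted p = 0.00446), from 0.841 ± 0.265 to 2.91 ± 0.357 CPM. NAC005 (TC_23748) rose by 1.36 ± 0.33 (adjusted p = 0.045) and lost the call without any 1 of MyA 12 h replicates 2, 3 and 4 or of the 4 MyA 18 h libraries. WRKY23 (TC_17234) changed by -0.02 ± 0.52. In the control step all 18 tested contigs fell (background 14.6%), and the MyA step minus the control step was called higher for 16 of them (background 11.2%). The list comes from sheets the study chose on these libraries, and control 12 h libraries enter both counts. These counts are therefore a description. The steps began at unlike levels: the mean log2 level was 2.88 at control 6 h and 1.4 at MyA 12 h. In treated seed it was 2.68 at 6 h and 1.18 at 18 h, so most of its fall came before 12 h.

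**Figure D4:**
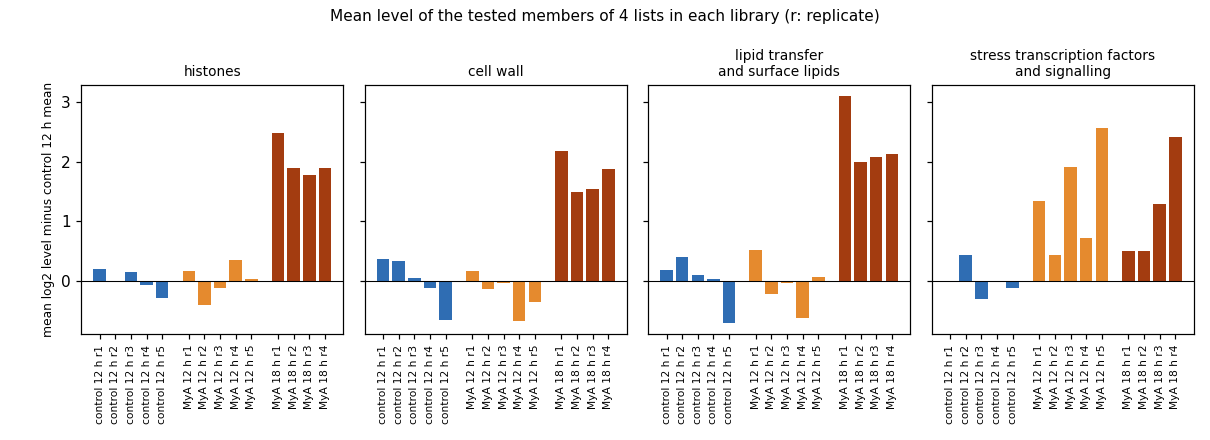
Mean log2 level of the tested contigs of 4 lists in each control 12 h, MyA 12 h and MyA 18 h library, as the difference from the control 12 h mean (y axis; r is the replicate). Histone, cell wall and lipid transfer bars are higher in all 4 MyA 18 h libraries than in any MyA 12 h library, whereas the stress factor bars run from 0.44 to 2.57 at MyA 12 h and from 0.5 to 2.42 at MyA 18 h.

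Members of the histone, cell wall and lipid lists were chosen on MyA 18 h libraries, and 2 of 11, 8 of 11 and 2 of 5 tested contigs passed the filter only through them, so their separation is a description. The mean log2 level of the histone contigs ran from -0.4 to 0.36 in MyA 12 h and from 1.78 to 2.48 in MyA 18 h libraries, that of cell wall contigs from -0.67 to 0.17 and from 1.49 to 2.19, and that of lipid transfer contigs from -0.62 to 0.52 and from 2 to 3.1. MyA 18 h replicate 1 was the highest in all 3 lists and shared the lowest MyA 18 h level of stress factors, 0.5, with replicate 2.

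Set against the control step, the MyA step moved fewer contigs and by less. The control step changed 2845 contigs upward (12.8%) and 3233 downward (14.6%), and the SD of the log2 fold change over all tested contigs was 1.09 there and 0.51 in the MyA step. Of the 436 contigs that rose in the MyA step, 339 (77.8%) had risen in the control step, 94 had not been called and 3 had fallen, and the 339 are 11.9% of the control rises. Of the 79 that fell, 49 (62%) had fallen in the control step, which is 1.52% of its falls, 28 had not been called and 2 had risen. The steps share no library. Across contigs, which are not independent replicates, the fold changes of both steps had a Pearson r of 0.451 and a Spearman rho of 0.461. The MyA step minus the control step was called higher for 2492 contigs (11.2%) and lower for 1726 (7.79%). Among the 436 rises it was higher for 53, lower for 190 and not called for 193, and the control step was the larger one at the median (log2 2.37). Scaling by 3 reference contigs moved the median contig from 0.08 to -0.47 in the control step and from -0.04 to -0.2 in the MyA step, and the difference was then called higher for 4259 contigs and lower for 895. With library sizes alone it was called higher for 2023 and lower for 2228.

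A position on the control course was computed for each library from the contigs called in the control step, as their mean log2 level scaled to 0 at the control 6 h mean and 1 at the control 12 h mean. On the 2845 rising contigs MyA 12 h libraries lay at 1.03, 0.95, 0.96, 0.89 and 0.92 and MyA 18 h libraries at 1.41, 1.27, 1.22 and 1.26, so the step carried treated seed beyond the control 12 h mean without overlap. On the 3233 falling contigs the positions were 1.07, 1.07, 1, 1.06 and 0.8 at MyA 12 h and 1.31, 1.22, 1.04 and 1.03 at MyA 18 h, and the groups overlapped. MyA 12 h replicate 5 and MyA 18 h replicates 3 and 4, the lowest of their own groups on the falling contigs, held the smallest shares of the enriched set within their groups and had mean stress factor levels of 2.57, 1.3 and 2.42. MyA 12 h replicate 3, at a position of 1, held the largest share, 7.09%, with a stress factor level of 1.91. Without the enriched set the group means were the same, 0.95 and 1.29 on the rising and 1 and 1.15 on the falling contigs. Of the contigs that rose in the control step 2532 (89%) also had a positive change in the MyA step, with a median log2 fold change of 0.42 against 1.47 in the control step. Of those that fell 2653 (82.1%) had a negative change, with a median of -0.28 against -1.48.

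**Figure D5:**
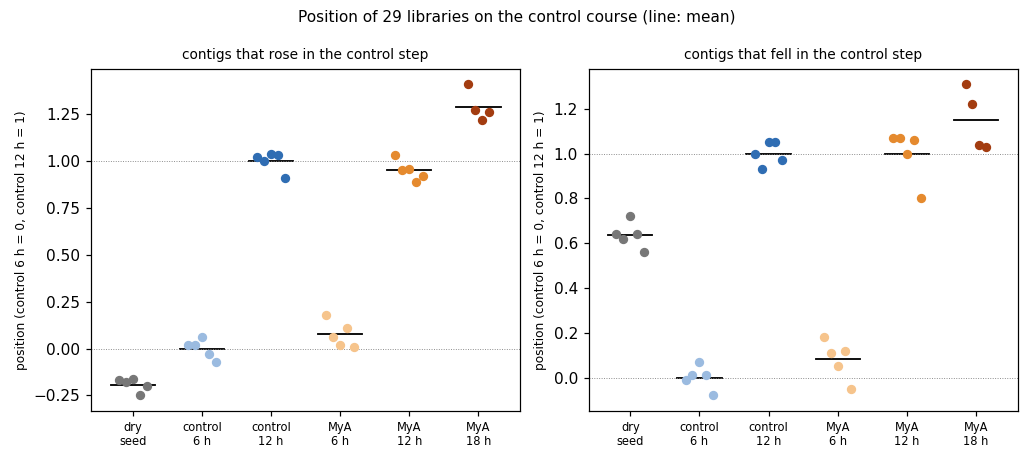
Position of each of the 29 libraries on the control course (y axis; 0 is the control 6 h mean and 1 the control 12 h mean) by group (x axis), for contigs that rose (left) and fell (right) in the control step; lines are group means. MyA 12 h libraries sit near 1 in both panels, and MyA 18 h libraries sit at 1.22 to 1.41 on the left and at 1.03 to 1.31 on the right.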

How the data were processed

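Poly(A) RNA of whole seeds was sequenced by the authors in 30 directional libraries, 5 in each of 6 groups, and 29 were used. The deposited values are raw read counts per contig. Per the labels, the processing tools were BWA and HTSeq, whose versions are not given in the sources used here, and contigs were assembled by the authors. Columns of per-sample values left unused numbered 0. Contigs with at least 5 CPM in at least 4 libraries were tested with edgeR 4.0.16 (R 4.3.3, TMM scaling, quasi-likelihood F test, Benjamini-Hochberg adjustment), on the libraries of each comparison. A second fit used a minimum of 5 counts in 4 libraries, and its calls are given for contigs below 5 CPM. Levels are TMM-scaled CPM, and SEs were derived from the F statistic. Contig lengths were not used, so levels are not compared between genes. Depth limits the precision of contigs of few counts, and PCR duplicates were not marked by molecular identifiers.

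Named contigs were the 12 largest named changes each way, up to 5 called members of each list, the contigs of the RT-qPCR primer table that stand in the lists, and up to 2 unnamed contigs each way. Members, names and lists were chosen with earlier results of these data known, from sheets the study chose on these libraries. Alternatives were DESeq2 1.42.0, other scalings and filters, a test against 1.5-fold, a fit over all groups, a replicate block, inclusion of the fifth MyA 18 h library and leaving out each library. The filter counted without MyA 18 h libraries and the share of the enriched set as a covariate were chosen after seeing the data. The tests were checked on simulated counts.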

Additional observations from a re-analysis of the deposited data

Results flagged for a closer look

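Among 154 groups of values, 17 held a library far from the rest by Dixon's test, and chance alone gives about 1 in 20. MyA 18 h replicate 1 stood above the other MyA 18 h libraries in 5 late contigs: AT3G23880 (17 CPM against 5.59 to 7.51), Bo3g045810 (35.9 against 8.01 to 11.3), SHY2 (9.82 against 5.42 to 5.8), HTA6 (108 against 56.7 to 61.5) and PER45 (10.4 against 4.79 to 5.12). MyA 18 h replicate 4 was far above in AMT1-1 (26.5 CPM against 15.8 to 17), ERF2 (8.13 against 0.407 to 0.708) and WRKY75 (20.7 against 8.24 to 10.2). In the same group replicate 2 was low in DTX9 (13.4 CPM against 17.8 to 18.7) and high in PER70 (0.949 against 0.325 to 0.4), and replicate 3 was high in UGT74E2 (8.16 against 2.57 to 3.39). At MyA 12 h replicate 1 was high in BFRUCT3 (8.71 CPM against 0.64 to 2.43), AT1G04040 (2.59 against 1.19 to 1.51) and NPF6.2 (7.85 against 3.33 to 4.2). MyA 12 h replicate 5 was high in WRKY23 (6.41 CPM against 1.11 to 2.63) and OXI1 (39.5, with the lowest library at 4.18), and lay at 0.8 on the falling contigs of the control course against 1 to 1.07.

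The naming rule gave 51 contigs called in the MyA step, contigs without a name included. That call selected them, and AT4G14060, OPT3, RD22, DTX9 and NPF6.2 are among those that passed the filter only through MyA 18 h. The MyA step differed from the control step in the test of the difference for 23 of the 51, beside 19% of all 22155 tested contigs. It was the more positive by log2 values of 3.58 for AT4G14060, 3.27 for AT1G09310, 2.77 for HTA6, 2.45 for OPT3, 2.06 for AT1G07660, 1.97 for HLS1, 1.92 for RD22, 1.9 and 1.19 for the H3 contigs TC_36392 and TC_25577, 1.88 for LTP5, 1.76 for FSD1 (TC_41220), 1.62 for AT5G59690 and 1.37 for GSTU25 (TC_66333). It was the more negative by -5.02 for ELP, -4.72 for Bo3g045810, -3.28 for AT5G12420, -2.87 for EXT3, -2.25 for AT5G22430, -1.85 for DTX9, -1.81 for AT5G48900, -1.78 for AT4G22460, -1.47 for TC_25480 and -1.15 for NPF6.2. In the library left out, MyA 18 h replicate 5, the enriched contigs held 23.5% of counts, against 0.45% to 7.09% in the other 29.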

How the results depend on the processing

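Of 51 called named contigs 35 kept their call under every alternative run and 44 whichever library was left out. Falls in the MyA step numbered 135 with DESeq2, 141 with 3 reference contigs, 157 with all groups in 1 fit, 52 with the fifth MyA 18 h library and 199 with the share of enriched contigs as covariate. Rises numbered 768 with the 5-count filter and 714 without a filter. A test against 1.5-fold gave 198 rises and 14 falls, and no fold threshold gave 1789 and 664. Leaving out a library gave 304 to 466 rises and 40 to 182 falls. For the difference of steps the higher and lower calls were 4259 and 895 with reference contigs and 4846 and 4476 without a fold threshold, the higher calls were 4025 with the 5-count filter and 3965 without a filter, and leaving out a library gave 2009 to 2788 and 1643 to 2408. The control step gave 1274 and 6305 with reference contigs, 5127 and 6099 with the 5-count filter, 4640 and 6821 without a filter, 7122 and 6917 without a fold threshold, and 2560 to 2918 and 2927 to 3570 with a library left out. The cause of these shifts was not tested.

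The replicate numbers did not pair the libraries: same-numbered MyA 12 h and 18 h libraries correlated at 0.261, 0.356, -0.25 and -0.448 and 0 of 4 correlated best with their own number. With the replicate number as a block the MyA step gave 323 rises and 38 falls and the difference 2594 lower calls, and uncalled contigs changed sign: ERF2 -0.23, UGT75B1 0.01, OXI1 0.07, UGT74E2 0.04 and WRKY23 0.45.

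Other sign changes were all in uncalled contigs. NAC102 was 0 with library sizes alone and -0.07 with reference contigs, and WRKY23 was 0.01 with all groups in 1 fit. With the fifth MyA 18 h library ERF2 was -0.02, CYP81D8 -0.2, ABCG37 -0.09, NAC102 -0.24 and GSTU19 0.12. With the covariate ERF2 was -1.84, CYP81D8 -1.82, AOX1A -0.64, ABCG37 -0.26, ABCB4 -0.35, NAC102 -0.66 and WRKY75 -0.1. With a library left out the values ran across 0, from -2.05 to 0.57 for ERF2, -0.33 to 0.3 for NAC102, -0.75 to 0.73 for CYP81D8, -0.06 to 0.33 for ABCG37, -0.02 to 1.04 for AOX1A, -0.64 to 0.19 for UGT75B1, -1.06 to 0.15 for OXI1 and -0.5 to 0.54 for WRKY23. Depth limits contigs near 0 at control 6 h, whose control step rests on a few counts per library.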
